A study of Mus musculus with 12 samples.

Results

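Cells carry receptors in the cytosol that bind RNA or DNA out of place, and the genes described here are 10 of them and their signalling partners. They are the RNA helicase sensors Ddx58, Ifih1, Dhx58 and Ddx60, the sensors Zbp1 and Eif2ak2, the DNA sensor Mb21d1, the adaptors Mavs and Tmem173 and the kinase Tbk1. The list of 10 was chosen by function, but with earlier results of these data known. All 10 were found among the 15140 genes of the count table by gene symbol. Tmem173 and Mb21d1 were listed there under their newer names Sting1 and Cgas. Messenger RNA was sequenced after polyA selection in 6 whole-liver libraries labelled KO and 6 labelled wild-type (WT). In the KO mice, prohibitin 1 (Phb1) was deleted in adipocytes. All mice were male, were 7 to 8 weeks old at the start of feeding and had a high-fat diet (60 kcal% fat) for 3 months, so both groups describe a fat-fed liver, and the deletion lies in another organ. The sources used here name neither the driver of the deletion nor the strain, nor do they tie libraries to animals, so the p-values speak of the spread among the 12 libraries only.

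RIG-I (encoded by Ddx58) and MDA5 (Ifih1) bind double-stranded RNA, RIG-I preferring short ends that carry a triphosphate and MDA5 long duplexes, and both signal through MAVS on the mitochondrial outer membrane. The enzyme cGAS (Mb21d1) binds DNA and makes a cyclic dinucleotide that activates STING (Tmem173); both routes meet at the kinase TBK1, which switches on interferon genes. Interferon in turn raises the transcription of several of the sensors, and in liver the pathway is best known for its answer to hepatitis viruses.

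Library totals ran from 34121087 to 37973022 counts in KO and from 30348123 to 40828767 counts in WT (exact two-sided permutation test, p = 0.742). Levels are given as CPM, the count of a gene scaled to a common library size (TMM). The prohibitin 1 gene Phb ran over 88.6 to 100.4 CPM in KO livers and over 80.0 to 91.2 CPM in WT livers (edgeR adjusted p = 0.144); since it was deleted in fat cells, its liver level does not check the labels. In all, 396 of 15000 tested genes differed between KO and WT at an adjusted p under 0.05 (edgeR quasi-likelihood test), 2.64% of them, and 224 genes, or 1.49%, were lower in KO. That total depended on single libraries: it was 25 without WT library 4, 46 without WT library 2, 86 without KO library 6, 89 without WT library 5, 235 without KO library 2 and 700 without WT library 6.

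Of the 7 sensor genes with a RefSeq promoter (GRCm38.p6, from 250 bases before to 50 after the start), 4 held the core of the interferon-stimulated response element, the DNA motif that interferon-activated factors bind. The core searched was GAAANNGAAA on either strand, which 3.44% of all 32851 promoters of the same length held. Those 4 promoters are shown 5′ to 3′ on the strand of the gene so that the number and place of the matches can be compared, with the matched core in capitals.
Ddx60 (chr8:61927837-61928136, plus strand): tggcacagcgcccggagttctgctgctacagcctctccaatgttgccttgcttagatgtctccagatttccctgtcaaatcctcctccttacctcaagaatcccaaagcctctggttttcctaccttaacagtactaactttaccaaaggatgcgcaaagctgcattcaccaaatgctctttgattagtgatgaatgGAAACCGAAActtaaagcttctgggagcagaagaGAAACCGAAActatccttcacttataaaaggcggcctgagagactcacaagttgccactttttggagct
Ddx58 (chr4:40239776-40240075, minus strand): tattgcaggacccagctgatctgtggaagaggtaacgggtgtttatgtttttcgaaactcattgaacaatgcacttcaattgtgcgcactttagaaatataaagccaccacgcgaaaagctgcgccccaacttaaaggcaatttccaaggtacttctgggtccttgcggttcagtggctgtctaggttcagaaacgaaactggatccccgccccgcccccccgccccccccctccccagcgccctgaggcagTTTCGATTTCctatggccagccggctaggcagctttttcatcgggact
Ifih1 (chr2:62646206-62646505, minus strand): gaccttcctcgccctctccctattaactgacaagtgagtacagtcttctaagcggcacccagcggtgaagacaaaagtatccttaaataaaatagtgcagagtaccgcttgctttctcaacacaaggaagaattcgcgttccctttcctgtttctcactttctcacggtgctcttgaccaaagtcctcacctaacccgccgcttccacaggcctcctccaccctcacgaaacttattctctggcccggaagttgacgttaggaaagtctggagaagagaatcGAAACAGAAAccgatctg
Eif2ak2 (chr17:78882523-78882822, minus strand): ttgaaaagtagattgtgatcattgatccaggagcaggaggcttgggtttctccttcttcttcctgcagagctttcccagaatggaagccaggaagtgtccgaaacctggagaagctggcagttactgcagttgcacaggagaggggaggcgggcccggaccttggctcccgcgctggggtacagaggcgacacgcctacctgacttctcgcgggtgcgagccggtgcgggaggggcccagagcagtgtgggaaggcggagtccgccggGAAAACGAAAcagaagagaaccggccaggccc
Ddx60 held 2 copies with the same letters, at positions -53 to -44 and -19 to -10 from the start. In the other three the match lay just after the start, at 3 to 12 in Ddx58 (on the opposite strand), 33 to 42 in Ifih1 and 19 to 28 in Eif2ak2. The promoters of Mavs, Tbk1 and Mb21d1 held no such letters in this window. Of the 4 genes with the core, 3 passed the test described next and 1, Eif2ak2, did not. Of the 3 genes without it, 0 passed. Among those 3, Mb21d1 had counts too low to exclude a fall as large as that estimated for Ddx58. Dhx58 and Zbp1, which also passed, had no promoter sequence here and are outside this count. A link between the motif and the change was not tested. The gamma-activated site core TTCNNNGAA, which 8.30% of all promoters held, was found in Eif2ak2 alone of the 7, at -178 to -170, where it did not overlap the other match. No promoter is shown for Dhx58, Zbp1 and Tmem173.

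All 4 RNA helicase sensors and Zbp1 were lower in KO livers than in WT livers, and the other 5 genes did not pass the test. Thus 5 of the 10 were called lower and 0 higher, against 1.49% of all tested genes called lower and 1.15% called higher. The groups did not overlap for the same 5 genes, with every KO library below every WT library, as was the case for 1.24% of all tested genes. The median log2 fold change over the 10 genes was -0.40, against 0.00311 over all tested genes. Liver pieces hold several cell types, and in such samples fewer cells of a type and less RNA per cell cannot be told apart.

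**Figure D1:**
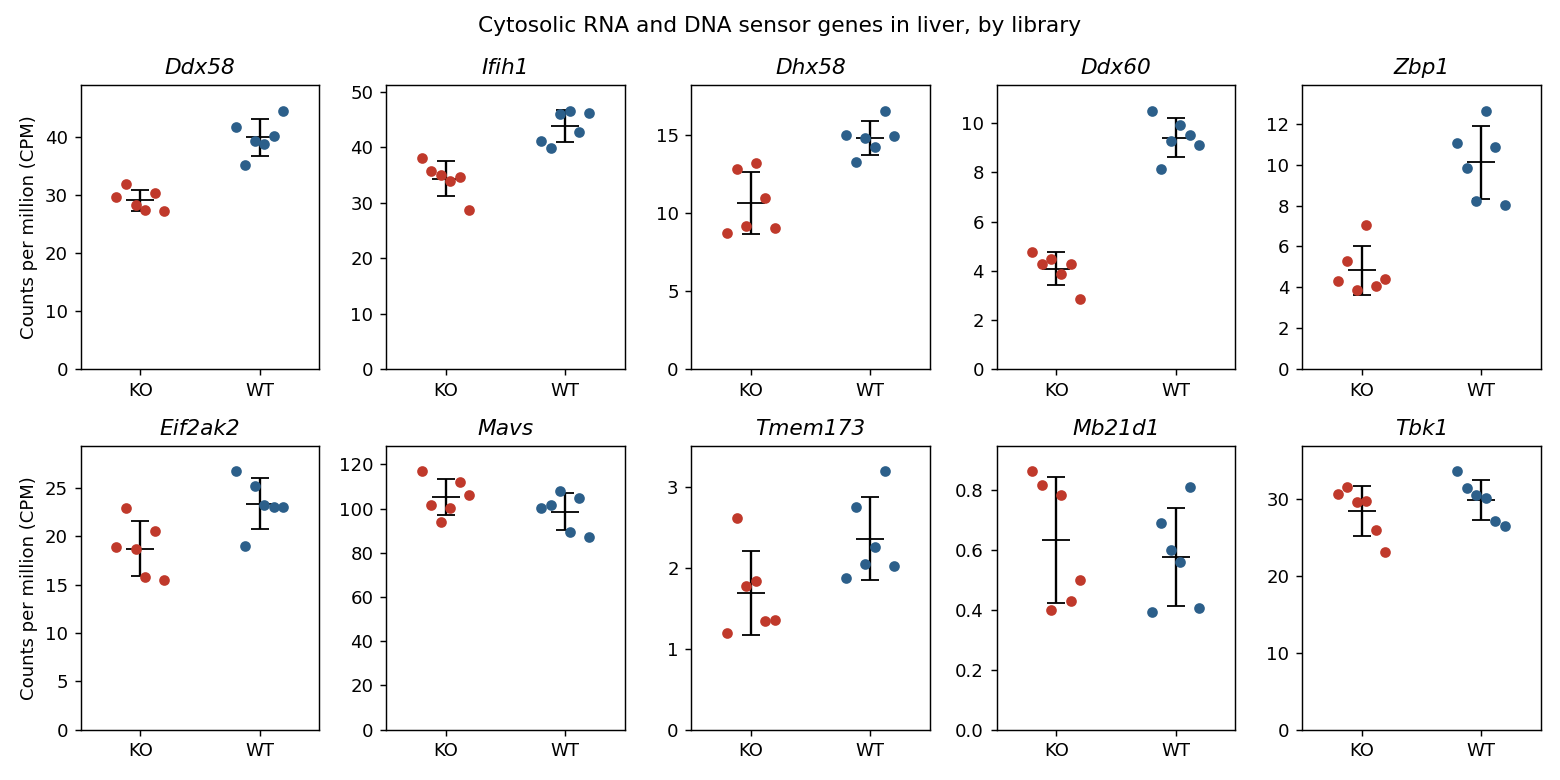
CPM of each gene in the 6 KO and 6 WT libraries (points, library 1 to 6 from left to right within a group; line and bars, mean and SD). The 6 KO points of Ddx58, Ifih1, Dhx58, Ddx60 and Zbp1 lie below all 6 WT points, while the groups overlap in the other 5 panels.

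Ddx60, which encodes a large helicase-like protein reported to assist RIG-I signalling, had the largest fold change of the 10. It lies on chromosome 8 from 61928087 to 62038244 (GRCm38, plus strand). KO libraries 1 to 6 held 4.76, 4.26, 4.49, 3.85, 4.26 and 2.86 CPM. WT libraries 1 to 6 held 10.5, 8.13, 9.28, 9.95, 9.51 and 9.12 CPM. The highest KO library was thus well under the lowest WT library, and KO library 6 was the lowest of all 12. The mean was 4.08 ± 0.669 CPM in KO and 9.42 ± 0.805 CPM in WT (SD, n = 6 each), a level 56.6% lower. The log2 fold change was -1.21 ± 0.12 (SE; edgeR adjusted p = 0.000819), and by its p-value Ddx60 ranked 2 among the 15000 tested genes.

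Ddx58, the gene of RIG-I, lies on chromosome 4 from 40203773 to 40239828 (minus strand). It had a lowest, median and highest value of 27.2, 28.9 and 31.8 CPM in KO livers, against 35.1, 39.8 and 44.5 CPM in WT livers. The KO values were tightly grouped, with an SD of 6.31% of their mean, against 7.91% in WT. The difference was smaller than that of Ddx60, 27.1% lower in KO, with a log2 fold change of -0.46 ± 0.07 (SE, n = 6 each; edgeR adjusted p = 0.00860).

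Ifih1, the gene of MDA5, lies on chromosome 2 from 62595798 to 62646255 (minus strand). Its lowest, median and highest values were 28.6, 34.9 and 38.1 CPM in KO livers and 39.8, 44.5 and 46.6 CPM in WT livers. KO library 1, the highest of its group, and WT library 2, the lowest of its group, stood close to each other, so the groups were separated by a small gap. The level was 21.5% lower in KO (log2 fold change -0.35 ± 0.07 SE; edgeR adjusted p = 0.0267). The call was lost in 4 of 12 fits that left out 1 library, those without KO library 6 (adjusted p = 0.05001), WT library 2 (0.0504), WT library 4 (0.0716) or WT library 5 (0.0624), although the log2 fold change stayed between -0.38 and -0.31 over all 12 fits. With the replicate number as a block it was also lost (adjusted p = 0.0587).

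Dhx58 encodes LGP2, a relative of RIG-I and MDA5 that lacks their signalling domains and tunes both. It lies on chromosome 11 from 100694884 to 100704271 (minus strand). Its lowest, median and highest values were 8.72, 10.1 and 13.2 CPM in KO livers, against 13.3, 14.9 and 16.6 CPM in WT livers. KO libraries 2 and 4, at 12.8 and 13.2 CPM, stood close under WT library 2, and the other 4 KO libraries lay at 8.72 to 11.0 CPM. The log2 fold change was -0.47 ± 0.11 (SE; edgeR adjusted p = 0.0420), 28.0% lower in KO. This was the least stable of the 5 calls: 3 of the 12 fits that left out 1 library kept it, with an adjusted p from 0.0270 to 0.0997 and a log2 fold change from -0.55 to -0.42. The call was lost without KO library 1 (adjusted p = 0.0695), 3 (0.0612), 5 (0.0562) or 6 (0.0834) and without WT library 1 (0.0671), 2 (0.0733), 3 (0.0615), 4 (0.0910) or 5 (0.0997). It was also lost with the replicate number as a block (0.0643) and with scaling by total counts only (0.0778).

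Zbp1, whose protein binds nucleic acids in the Z form and can start necroptosis through RIPK3, lies on chromosome 2 from 173206612 to 173218923 (minus strand). Its values in KO livers were 4.32, 5.29, 3.84, 7.05, 4.05 and 4.40 CPM in libraries 1 to 6. In WT livers they were 11.1, 9.84, 8.23, 12.6, 10.9 and 8.01 CPM in libraries 1 to 6. KO library 4 stood highest in its group and WT libraries 3 and 6 lowest in theirs, without overlap. The mean was 4.82 ± 1.20 CPM in KO and 10.1 ± 1.78 CPM in WT (SD, n = 6 each; log2 fold change -1.07 ± 0.16 SE, edgeR adjusted p = 0.0112).

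Eif2ak2 encodes PKR, a kinase that double-stranded RNA activates and that halts protein synthesis through eIF2. It lies on chromosome 17 from 78852564 to 78882573 (minus strand). Its lowest, median and highest values were 15.4, 18.8 and 22.9 CPM in KO livers and 18.9, 23.1 and 26.7 CPM in WT livers. The groups overlapped, since WT library 2 lay at 18.9 CPM and KO libraries 2 and 5 lay above it, while the other 4 KO libraries were below every WT library. The log2 fold change of -0.32 ± 0.11 (SE) did not pass (edgeR adjusted p = 0.110; 95% interval of this gene alone -0.55 to -0.09).

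The DNA route was represented by low counts. Mb21d1, the gene of cGAS (chromosome 9, 78430526 to 78443237, minus strand), had 13 to 34 counts in KO libraries and 12 to 30 counts in WT libraries, or 0.400 to 0.863 CPM in KO and 0.394 to 0.813 CPM in WT. Its log2 fold change was 0.13 ± 0.28 (SE; edgeR adjusted p = 0.826), and the 95% interval from -0.47 to 0.73 does not exclude falls as large as those estimated for Ddx58 or Ifih1. Tmem173, the gene of STING on chromosome 18, is known to be low in hepatocytes and present in liver macrophages. It had a lowest, median and highest value of 1.20, 1.57 and 2.62 CPM in KO livers and of 1.88, 2.16 and 3.20 CPM in WT livers. In 5 of 6 KO libraries it was below every WT library, and KO library 2 was the exception. Its log2 fold change of -0.48 ± 0.21 (SE), close in size to that of Dhx58, did not pass (edgeR adjusted p = 0.215; 95% interval -0.94 to -0.02).

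The adaptor and the kinase that several sensors share were present at overlapping levels. Mavs (chromosome 2, 131234063 to 131248025, plus strand) had a lowest, median and highest value of 94.2, 104.1 and 116.8 CPM in KO livers and of 87.3, 101.1 and 108.0 CPM in WT livers. Its log2 fold change was 0.09 ± 0.07 (SE; edgeR adjusted p = 0.485; 95% interval -0.06 to 0.25). Tbk1 (chromosome 10, 121546455 to 121586787, minus strand) ran from 23.1 to 31.5 CPM in KO livers and from 26.5 to 33.6 CPM in WT livers, with a log2 fold change of -0.07 ± 0.09 (SE; edgeR adjusted p = 0.677; 95% interval -0.25 to 0.11). Both intervals exclude a fall as large as the one estimated for any of the 5 called genes. Whether the change of a sensor differed from that of its adaptor was not tested.

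**Figure D2:**
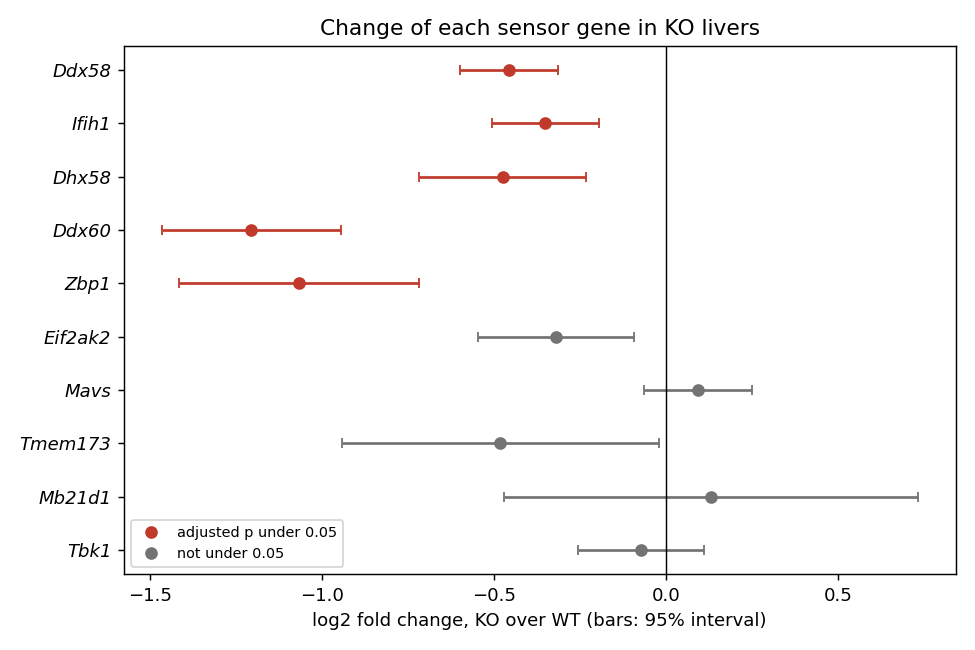
Log2 fold change of each gene, KO over WT, from the edgeR fit over 15000 genes, with the 95% interval of that gene alone. The 5 genes called lower lie between -1.21 and -0.35, and the intervals of Mavs, Mb21d1 and Tbk1 include 0.

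The levels of different genes were compared per kilobase (kb) of exon, with lengths from GENCODE M21. Mavs was the highest in both groups, at 31.5 CPM per kb in KO and 29.5 CPM per kb in WT, and Tbk1 followed at 7.27 CPM per kb in KO and 7.63 CPM per kb in WT. Ddx58, Ifih1, Eif2ak2 and Dhx58 formed a middle group at 3.25 to 4.21 CPM per kb in KO and 4.52 to 5.67 CPM per kb in WT, where the ranges of neighbours in the order overlapped. Zbp1 came next at 1.37 CPM per kb in KO and 2.86 CPM per kb in WT. Ddx60 and Tmem173 followed with overlapping ranges, and they swapped places: Ddx60 had the lower mean in KO (0.470 against 0.617 CPM per kb) and the higher mean in WT (1.08 against 0.863 CPM per kb). Mb21d1 was lowest at 0.154 CPM per kb in KO and 0.140 CPM per kb in WT. The order depended on the length used. With the length of the longest transcript instead, Ddx58 stood above Ifih1 in both groups, in KO at 7.51 against 6.28 CPM per kb (ranges 7.02 to 8.21 and 5.24 to 6.97) and in WT at 10.3 against 8.01 CPM per kb (ranges 9.06 to 11.5 and 7.28 to 8.53), without overlap. Ifih1 then overlapped Dhx58 in KO but lay above it without overlap in WT. Ddx58 also came above Tbk1 at 9.87 CPM per kb in WT, and Dhx58 above Eif2ak2 in both groups, with overlapping ranges.

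**Figure D3:**
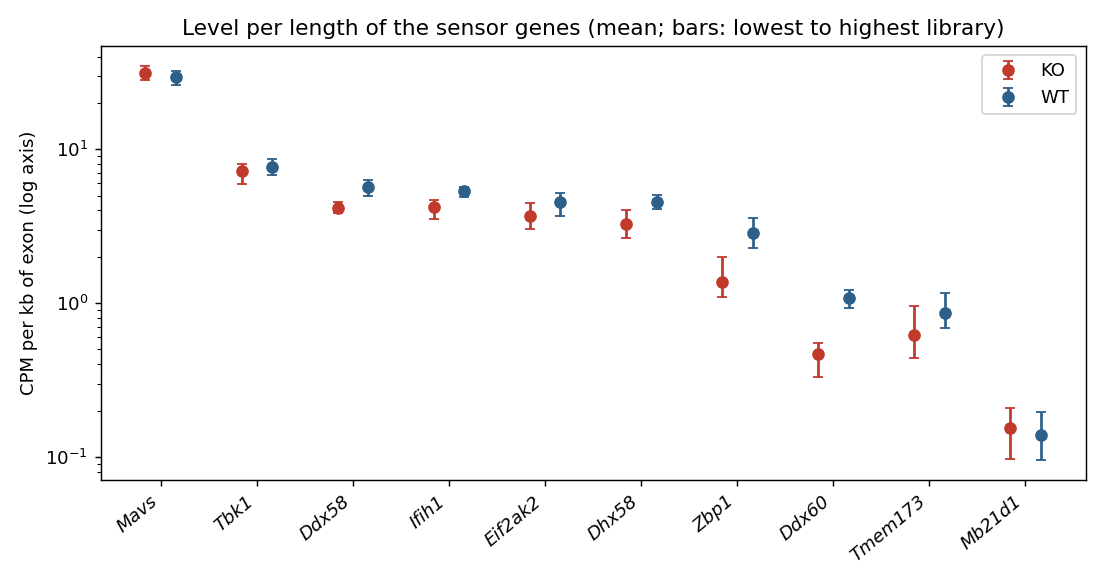
Level of each gene per kb of exon on a log axis, as the mean and the range from the lowest to the highest of 6 libraries, for KO and WT. Genes are in the order of their WT level, from Mavs at 29.5 to Mb21d1 at 0.140 CPM per kb.

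Libraries differed in how often they were the extreme of their group. Among the 5 called genes, KO library 6 was the lowest KO library for 3 genes (Ddx58, Ifih1 and Ddx60), and WT library 2 was the lowest WT library for 4 genes (all but Zbp1). Leaving out KO library 6, or WT library 2, 4 or 5, left 3 of the sensor genes called, whereas the other 8 such fits left 4 or 5. Ddx58, Ddx60 and Zbp1 were called in all 12 fits, with an adjusted p of at most 0.0315, 0.00472 and 0.0370. In the authors' deposited table the same 5 genes had an adjusted p under 0.05, from 1.31e-07 for Ddx60 to 0.0404 for Ifih1, and 0.127 for Eif2ak2. In the authors' deposited table such genes lower in KO made up 2.98% of those with an adjusted p. That comparison comes with the same counts and is no separate evidence. Its adjusted p-values were not those of the DESeq2 fit made here. They were 0.0134 against 1.85e-07 for Ddx58, 0.0404 against 0.000695 for Ifih1 and 0.00184 against 0.00372 for Dhx58. The cause was not tested.

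**Figure D4:**
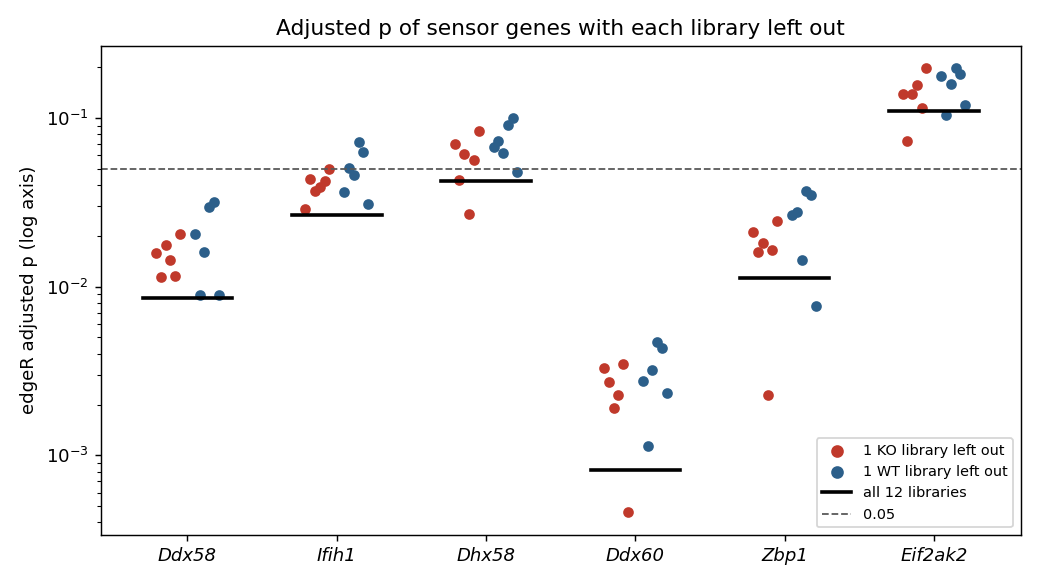
Adjusted p (log axis) of the 5 called genes and Eif2ak2 when 1 KO or 1 WT library was left out (points), and with all 12 libraries (black lines). All points of Ddx58, Ddx60 and Zbp1 lie under 0.05, while those of Ifih1 and Dhx58 fall on both sides.

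The wider pathway was read from 9 lists of other nucleic acid sensing genes. Of 118 tested genes, 6 were lower in KO and 0 were higher, against 1.49% lower and 1.15% higher among all tested genes. The 118 had 56 negative and 62 positive fold changes, with a median log2 fold change of 0.00925, close to the 0.00311 of all tested genes. No more than 1 gene per list was called. Leaving out single libraries moved the 6 called genes to 0 (without WT library 4) or 2 (without KO library 6, WT library 2 or WT library 5), and DESeq2 called 14. Of the 10 interferon ligand genes listed, none was among the 15140 genes of the count table. The lowest gene of that table had 15 counts over the 12 libraries together, and why the ligand genes are absent is not given.

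Among the factors that act after MAVS and STING (22 tested, 1 lower, median 0.000853), Irf7 was lower. It encodes the transcription factor that amplifies interferon production. Irf7 had a lowest, median and highest value of 15.0, 20.2 and 30.0 CPM in KO livers, against 32.5, 39.2 and 46.1 CPM in WT livers, so the groups did not overlap (log2 fold change -0.92 ± 0.16 SE; edgeR adjusted p = 0.0176). Its end shares 45 bases of exon with Phrf1 on the opposite strand, so a few reads are uncertain.

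Of the cGAS and STING accessory genes (15 tested, 1 lower, median 0.11), Trim56, a ubiquitin ligase that acts on STING and cGAS, was lower at 26.9 ± 5.29 CPM in KO and 39.1 ± 2.27 CPM in WT (SD, n = 6 each; log2 fold change -0.54 ± 0.11 SE; edgeR adjusted p = 0.0267). Of the genes that remove or edit the cell's own nucleic acids (15 tested, 1 lower, median 0.03), Adar, which edits double-stranded RNA and keeps it from MDA5, PKR and ZBP1, was lower at 21.0 ± 1.91 CPM in KO and 27.8 ± 1.97 CPM in WT (log2 fold change -0.40 ± 0.07 SE; edgeR adjusted p = 0.0205). Adar shares 1365 bases of exon with Chrnb2 on the opposite strand, and its reads are uncertain to that extent. The groups did not overlap for Trim56 or Adar.

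Of the regulators of RIG-I-like receptors (19 tested, 1 lower, median -0.06), Zc3hav1, whose product ZAP binds viral RNA, was lower at 49.9 ± 4.67 CPM in KO and 64.4 ± 5.35 CPM in WT (log2 fold change -0.37 ± 0.07 SE; edgeR adjusted p = 0.0266). Of the ZBP1 cell death partners (6 tested, 1 lower, median -0.00033), Casp6, a caspase, was lower at 20.3 ± 3.07 CPM in KO and 28.6 ± 2.49 CPM in WT (log2 fold change -0.49 ± 0.10 SE; edgeR adjusted p = 0.0267). Of the endosomal receptors (11 tested, 1 lower, median -0.10), Unc93b1, which carries Toll-like receptors to the endosome, was lower at 37.3 ± 2.53 CPM in KO and 46.0 ± 3.72 CPM in WT (log2 fold change -0.30 ± 0.07 SE; edgeR adjusted p = 0.0350). Its groups overlapped, whereas those of Zc3hav1 and Casp6 did not.

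Among all 15000 tested genes, 3184 had an unadjusted edgeR p under 0.05. No gene was called among the other nucleic acid sensors and cofactors (19 tested, 0 called by edgeR, 6 at an unadjusted p under 0.05, median -0.00445) or in the eIF2 kinase branch (11 tested, 0 called, 5 at an unadjusted p under 0.05, median 0.12). The smallest p-values there were those of the DNA sensor Aim2 (log2 fold change -0.81 ± 0.21 SE; edgeR adjusted p = 0.0556) and the helicase Ddx41 (0.18 ± 0.06 SE; 0.110). In the eIF2 branch they were those of Atf4, a stress transcription factor (0.53 ± 0.14 SE; 0.0556), and Eif2s1, the subunit that PKR phosphorylates (0.21 ± 0.07 SE; 0.102).

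**Figure D5:**
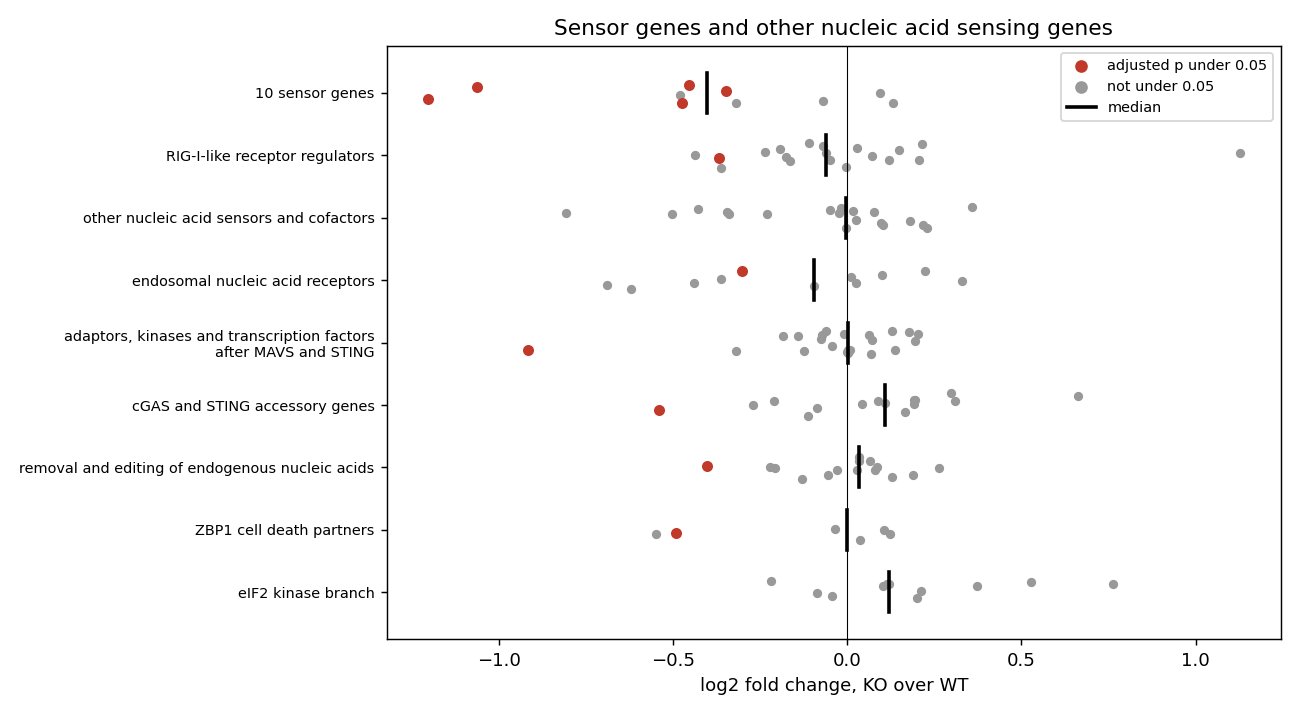
Log2 fold change, KO over WT, of the 10 sensor genes and of 118 other genes in 8 lists (points; black bars, medians). Red points passed an adjusted p of 0.05: 5 of the 10 sensor genes and at most 1 gene in each other list, all below 0.

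The sums of macrophage markers and of clock genes were lower in KO. The 9 measured hepatocyte markers, which check the liver label, summed to 72779 to 96936 CPM in KO and 71574 to 102448 CPM in WT. The 15 macrophage and Kupffer cell markers summed to 255 to 499 CPM in KO and 420 to 665 CPM in WT (exact permutation p = 0.00866, Benjamini-Hochberg 0.0346 over 8 lists), with Cd5l, Adgre1 and Vsig4 lower in KO and none of the 15 at 0 counts in any library. The groups overlapped in this sum, since KO library 4 lay above WT libraries 1, 3 and 6. Of the 15 markers, 14 had negative fold changes and 1 a positive one (median log2 fold change -0.57). The 14 core clock genes summed to 440 to 682 CPM in KO and 698 to 1067 CPM in WT (exact permutation p = 0.00216, the smallest possible; Benjamini-Hochberg 0.0173), with Hlf and Tef lower and Cry1 higher in KO. Of the 14 clock genes, 10 had negative and 4 positive fold changes (log2 from -2.18 to 1.55), so their sum does not stand for each gene. Sums of dendritic cell (7 measured, 23.3 to 32.2 CPM in KO and 29.2 to 34.0 CPM in WT), T and NK cell (6 measured, 4.31 to 5.79 CPM in KO and 3.66 to 7.74 CPM in WT) and B cell markers (8 measured, 6.53 to 18.0 CPM in KO and 10.7 to 22.0 CPM in WT) overlapped. So did those of sinusoidal endothelial (10 measured, 249 to 335 CPM in KO and 264 to 369 CPM in WT) and neutrophil markers (4 measured, 5.63 to 14.0 CPM in KO and 7.98 to 22.2 CPM in WT), and these 5 lists had a Benjamini-Hochberg adjusted p from 0.156 to 0.606 (exact permutation tests).

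Single markers of these 5 lists mostly had negative fold changes, 7 of 7 dendritic cell (median log2 fold change -0.36), 4 of 5 tested T and NK cell (-0.95), 8 of 8 B cell (-0.51), 10 of 10 endothelial (-0.18) and 4 of 4 neutrophil genes (-0.67), against a median of 0.00311 over all tested genes. One of them passed the test: Lck, a kinase of T cells, was lower at 0.318 ± 0.114 CPM in KO and 0.785 ± 0.210 CPM in WT (SD, n = 6 each; groups apart; log2 fold change -1.30 ± 0.30 SE, edgeR adjusted p = 0.0394). The highest gene of the T and NK sum in CPM was Cd4, at 3.69 ± 0.919 CPM in KO and 2.79 ± 1.47 CPM in WT (log2 fold change 0.41 ± 0.31 SE, edgeR adjusted p = 0.480). In the dendritic cell sum it was Tcf4, at 17.6 ± 1.52 CPM in KO and 18.4 ± 1.99 CPM in WT (log2 fold change -0.06 ± 0.08 SE, edgeR adjusted p = 0.717). In the B cell sum it was Ighm, at 8.39 ± 3.25 CPM in KO and 9.46 ± 3.50 CPM in WT (log2 fold change -0.17 ± 0.30 SE, edgeR adjusted p = 0.782). With the mean of log2 CPM in place of the sum, which gives each marker equal weight, 3 of the lists were lower in KO at an unadjusted p under 0.05 by exact permutation, those of T and NK cells (difference -0.28, p = 0.0130), B cells (-0.33, p = 0.0260) and dendritic cells (-0.33, p = 0.0346).

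The part of macrophage or other immune cell number and of clock phase in the lower sensor levels was not tested.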

How the data were processed

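Liver RNA of 12 libraries (6 KO, 6 WT, by the sample titles) was analysed from 1 table. Its whole-number read counts per gene were deposited by the authors without normalization, per the file headers and values. The authors' log2 fold change and p-value columns carry DESeq2 names, per the file headers. So do a mean signal (normalized count) and 2 score columns (error and test statistic) of the authors, which were not used. The submitters' processing notes list the tools FastQC, Trimmomatic, HISAT2, SAMtools, featureCounts and DESeq2 with GRCm38. Annotation and strand setting are not given in the sources, so reads of a gene and its antisense partner cannot be told apart. Dhx58, Eif2ak2 and Mb21d1 share 141, 221 and 201 exon bases with antisense genes of GENCODE M21 that were not analysed here.

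Repeated rows of a gene (204, with the same counts) were dropped, leaving 15140 genes, of which filterByExpr kept 15000, all 10 sensor genes included. Their low counts per library set the precision: 12 to 34 for Mb21d1, 43 to 118 for Tmem173 and over 90 for the rest. KO was compared with WT in edgeR 4.0.16 (R 4.3.3; quasi-likelihood F test, robust, TMM, two-sided, Benjamini-Hochberg over all tested genes). The SE is the absolute unshrunk log2 fold change divided by the square root of F, and intervals are unadjusted. Marker sums were tested by exact permutation over all 924 splits. The fit was tested on simulated data with planted changes. It called 33 of 66 genes planted at 1.5-fold, 54 of 70 at 2-fold and 62 of 64 at 4-fold, so many planted changes of 1.5-fold were missed. Of its calls on the simulated counts, 3.87% were false. Those counts were drawn for each gene independently, without shifts shared by the genes of a library. These shares therefore need not hold for the real calls. No 2 libraries of a group were alike within sampling noise (30 pairs, chi-square at least 38.1 per degree of freedom).

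The sensor genes, the lists and the tests were chosen with earlier results of these data known. Named are the 10 genes, each called gene of a pathway list or else its 2 smallest p-values, and the 3 smallest of the macrophage and clock lists. The same rule covered the other marker lists, of which Lck is printed as the called gene. Cd4, Tcf4 and Ighm, outside the rule, were named after their values were seen. Alternatives were DESeq2 1.42.0, limma-voom (limma 3.58.1), RLE factors, total counts, 2 other filters, a replicate block, each library left out, transcript length, a mean of log2 CPM (with 0.5 added) for marker sums and a motif spacer of 1 to 3 bases. Promoter letters are RefSeq's (GRCm38.p6).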

Additional observations from a re-analysis of the deposited data

How the results depend on the processing

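Over 19 alternative fits, no sensor gene changed direction. Ddx58, Ddx60 and Zbp1 stayed called in all 19, and Eif2ak2, Mavs, Tmem173 and Tbk1 stayed uncalled in all 19; Mb21d1 stayed uncalled in the 18 that tested it, since a minimum of 1 CPM in 6 libraries removed it. Besides the fits without single libraries, Dhx58 lost its call with total counts only (adjusted p = 0.0778); it and Ifih1 were called with DESeq2 (0.00372 and 0.000695) and limma-voom (0.0401 and 0.0277). The number of sensor genes called lower ran from 3 to 5 with each library left out, that of pathway genes from 0 to 8, and that of all genes from 25 to 700. DESeq2 called 1214 genes and 14 pathway genes, and total counts only 257 genes. The cause of these shifts was not tested.

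Same-numbered KO and WT libraries did not deviate together in every pair (r from -0.24 to 0.39, over 0.1 in 4 of 6 pairs; 2 of 6 KO libraries correlated best with their own number), so the numbers were not taken as pairs. With the replicate number as a block, 3 sensor genes were called instead of 5 and 374 genes in all; Ifih1 (adjusted p = 0.0587) and Dhx58 (0.0643) were not.

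The macrophage and clock sums kept their direction and their side of 0.05 in all 13 alternatives each. The sums of 4 other lists, above 0.05 before, fell under it in some: the T and NK and B cell lists as a mean of log2 CPM (exact permutation p = 0.0130 and 0.0260), the dendritic cell list likewise (0.0346) and without KO library 1 (0.0498), KO library 2 (0.0216) or WT library 4 (0.0455), and the neutrophil list without WT library 2 (0.0433) or 3 (0.0325). The hepatocyte sum, whose difference was -1309 CPM, ran from -4346 to 1829 CPM with each library left out, positive without KO library 1, 2 or 3 or WT library 3, and was positive as a mean of log2 CPM (0.10), with no permutation p under 0.05 (p from 0.262 to 0.989). A spacer of 1 to 3 bases left 4 promoters with the motif, against 8.61% of all promoters. Ddx58 and Ifih1 then held 2 matches each instead of 1, the added one before the start, while Ddx60 kept 2 and Eif2ak2 1.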
